A study of Homo sapiens with 6 samples.

Results

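BAF (mammalian SWI/SNF) complexes are ATP-driven chromatin remodellers in which several positions are filled by 1 of a set of paralogous subunits. RNA of 10 such subunit genes was followed here in SH-SY5Y cells, a human neuroblastoma cell line with features of sympathetic neuronal precursors: ACTL6A and ACTL6B, DPF1, DPF2, DPF3 and PHF10, SMARCD1 and SMARCD3, and SS18 and SS18L1. The genes were taken by symbol from the table of 20668 genes, in which all 10 were found. They were chosen by family and with their counts in the knockout comparison in view (DPF3, for one, as a gene without counts in the unedited cells). Their own differences between genotypes are therefore given as a description, without a test.

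The data were 6 RNA-seq libraries of ribosome-depleted total RNA, 3 of wild-type (WT) cells and 3 of a CRISPR/Cas9 knockout of DNAJC12, a gene for a co-chaperone of HSP70, and no library was from treated cells. The study asks about cell invasion. The labels do not say whether replicates were separate cultures or whether the knockout cells were 1 clone. The p-values therefore speak of the scatter among these 6 libraries, and that scatter may be technical. Libraries held 19321842 to 21869659 counts. DNAJC12 itself was lower in each knockout library (4.85 to 5.91 counts per 1000000, CPM) than in each WT library (20.04 to 23.05 CPM). Markers of the adrenergic neuroblastoma state were present in every library, with a summed level of 3386 to 3477 CPM over 9 genes in WT and 2867 to 2983 CPM in the knockout; TH, the 10th on that list, was not analysed here. The summed level of 9 genes of the mesenchymal or substrate-adherent state was 2531 to 2745 CPM in WT and 4126 to 4275 CPM in the knockout. Of these 9, 7 rose and 1 fell by the edgeR test described below, beside 14.5% called higher and 11.5% lower over all genes. AXL, among those that rose, had 3, 5 and 4 WT counts and passed the expression filter of that test through its knockout counts alone. The part of this state in the results was not tested. Markers of other lineages (EPCAM, CDH1, PTPRC and MBP) summed to 1.26 to 2.89 CPM in WT and 2.57 to 3.26 CPM in the knockout.

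During neuronal differentiation, progenitor forms of the complex give way to neuronal ones: the actin-related subunit ACTL6A is exchanged for ACTL6B, the double PHD finger proteins PHF10 and DPF2 for DPF1 and DPF3, and SS18 for SS18L1. SMARCD1 and SMARCD3 are alternative subunits that link the complex to transcription factors. The exchange of ACTL6A is known to depend on neuronal microRNAs that act on its messenger and are themselves held back by the repressor REST in non-neuronal cells.

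ACTL6B and DPF3 had the lowest WT levels of the 10 genes and the widest separation between genotypes. The 250 bases before their RefSeq start sites are therefore shown (GRCh38.p14, minus strand, 5′ to 3′). The ACTL6B stretch is chr7:100656449-100656698 and the DPF3 stretch is chr14:72894102-72894351. Capitals mark the letters CCAAT on either strand (ATTGG on the other) and CAGCTG, which reads the same on both strands.
ACTL6B: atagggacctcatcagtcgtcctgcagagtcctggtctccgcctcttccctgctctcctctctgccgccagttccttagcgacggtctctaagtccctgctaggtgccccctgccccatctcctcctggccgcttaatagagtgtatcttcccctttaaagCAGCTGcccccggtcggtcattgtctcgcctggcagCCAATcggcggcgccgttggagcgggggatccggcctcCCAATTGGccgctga
DPF3: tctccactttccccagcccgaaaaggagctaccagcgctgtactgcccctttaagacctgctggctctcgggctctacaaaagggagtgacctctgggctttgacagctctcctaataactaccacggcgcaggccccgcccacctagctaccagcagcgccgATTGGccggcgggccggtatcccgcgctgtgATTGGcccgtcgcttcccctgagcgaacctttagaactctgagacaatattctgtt
CCAAT occurred 3 times in the ACTL6B stretch, with a pair of matches overlapping, and 2 times in the DPF3 stretch. Of 35116 RefSeq promoter stretches of this length, 32% held CCAAT. The annotated start of the transcript ACTL6B-201 lies inside the printed stretch, at position 100656461. In the overlapping pair, CCAAT spans that start and ATTGG lies after it. CAGCTG, a form of the E-box bound by proneural factors, occurred once before ACTL6B and was not found before DPF3 (14% of all stretches). TTCAGCACC and GGACAGC, letters of the left and right parts of the element bound by REST, matched neither stretch (0.288% and 4.76% of all), nor did TATAAA (10.7%). GGGCGG matched DPF3 alone (42.6% of all). Such matches are letters in a window and do not show binding.

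Actin-related subunits differed most in the neuronal member. ACTL6B (ENSG00000077080, chromosome 7 from 100643097 to 100656448), the neuronal actin-related subunit, had 17, 14 and 25 counts in WT replicates 1, 2 and 3 and 199, 269 and 269 in knockout replicates 1, 2 and 3. After scaling by the trimmed mean of M-values (TMM) these were 0.823, 0.711 and 1.28 CPM against 10.1, 12.95 and 12.55 CPM. The lowest knockout value was thus far above the highest WT value. The mean went from 0.937 ± 0.301 to 11.9 ± 1.52 CPM (SD, n = 3), a log2 fold change of 3.66 ± 0.23 (SE of the edgeR fit). From 56 and 737 counts the ratio was 12.8, with an exact 95% interval of 9.71 to 17.0 that covers counting error only. The transcript ACTL6B-201 carried 97.0% to 100% of the estimated reads of ACTL6B in every library.

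ACTL6A (ENSG00000136518, chromosome 3 from 179562926 to 179588407), the progenitor counterpart, was not lower in the knockout. It stood at 84.6, 91.1 and 93.8 CPM in WT replicates 1 to 3 and at 94.4, 117 and 101 CPM in the knockout replicates. The groups did not overlap, but the lowest knockout value exceeded the highest WT value by less than the WT spread. Its means were 89.8 ± 4.73 and 104 ± 11.8 CPM (SD, n = 3; log2 fold change 0.21 ± 0.09). In transcripts per 1000000 (TPM), which allow levels of different genes to be compared per length, the share of ACTL6B in the pair was 1.04%, 0.750% and 1.48% in WT and 9.38%, 9.83% and 11.8% in the knockout. Its mean went from 1.09% ± 0.367 to 10.3% ± 1.28 (SD, n = 3), a difference of 9.24 percentage points. ACTL6A was thus the more abundant of the pair in all 6 libraries.

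**Figure D1:**
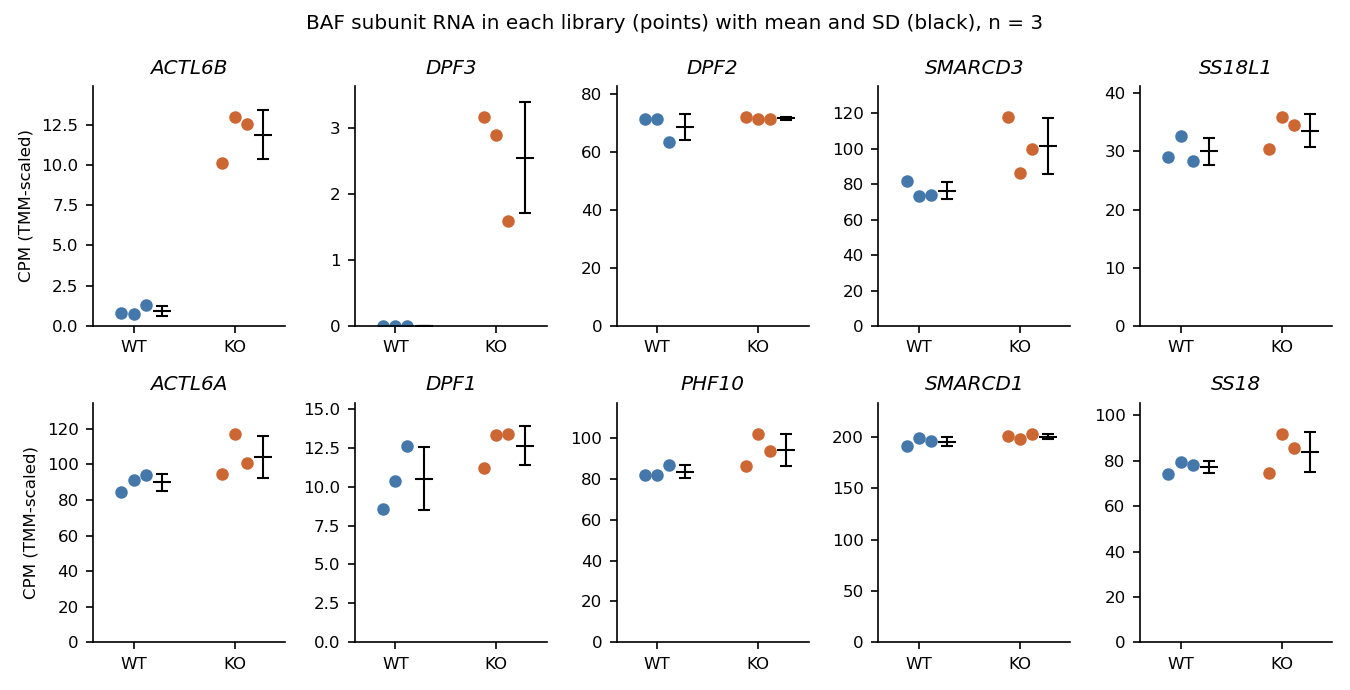
Level of each of the 10 genes in CPM after TMM scaling (linear axes from 0), with a point for each WT or knockout (KO) library and the mean and SD of 3 libraries in black. ACTL6B lies at 0.711 to 1.28 CPM in WT and 10.1 to 12.95 CPM in the knockout, and DPF3 has no WT count.

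The double PHD finger genes, which encode readers of modified histone tails, included the one member without a WT count. DPF3 (ENSG00000205683, chromosome 14 from 72609034 to 72894101) had 0 counts in each WT library and 62, 60 and 34 counts in knockout replicates 1, 2 and 3. The knockout values were 3.16, 2.89 and 1.59 CPM (2.54 ± 0.841 CPM, SD, n = 3), so the gene stayed low where it was detected. Against a floor of 3 counts over the WT group, or 0.0501 CPM, its level was at least 50.4-fold higher in the knockout. With WT replicate 1 left out the same bound was 33.0-fold, because the floor then rests on fewer WT counts. Its estimated knockout reads fell mostly on 3 transcripts. DPF3-210 and DPF3-202 begin just after the stretch printed above, and DPF3-216 begins inside it, at position 72894116. Of these, DPF3-210 had 26.7, 21.2 and 15.8, DPF3-202 (annotated as a target of nonsense-mediated decay) had 18.9, 9.31 and 10.4, and DPF3-216 had 16.4, 0 and 6.36. In knockout replicate 2 another 25.3 reads were placed on DPF3-214, a transcript annotated as non-coding that begins inside the gene at position 72724105. At these numbers the division among transcripts is uncertain.

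DPF1 (ENSG00000011332), the other neuronal member of this group, was at 8.57, 10.3 and 12.6 CPM in WT and 11.2, 13.3 and 13.4 CPM in the knockout. The ranges overlapped (log2 fold change 0.27 ± 0.15). DPF2 (ENSG00000133884), which is expressed broadly, was at 71.3, 71.4 and 63.7 CPM in WT and 72.1, 71.6 and 71.3 CPM in the knockout. Its means differed by less than the WT SD (68.8 ± 4.43 and 71.6 ± 0.378 CPM; log2 fold change 0.06 ± 0.07). PHF10 (ENSG00000130024), the progenitor subunit, was at 81.9, 81.6 and 86.9 CPM in WT and 86.1, 102 and 93.7 CPM in the knockout, with ranges that overlapped (log2 fold change 0.17 ± 0.08). Within PHF10 the transcript PHF10-205 held 68.1% to 68.6% of estimated reads in WT and 74.5% to 77.9% in the knockout.

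The share of DPF1 and DPF3 among the DPF genes and PHF10 depended on the unit. In CPM, which do not correct for length, it was 5.30%, 6.34% and 7.71% in WT and 8.32%, 8.53% and 8.32% in the knockout. In TPM it was 7.95%, 2.51% and 11.8% in WT and 12.6%, 10.5% and 11.99% in the knockout, and the WT values spread more widely. The transcripts that could be assigned to genes held 17.7% to 100% of the counts of DPF1 and 44.9% to 61.6% of those of DPF2, so that TPM values of these genes are too low by differing amounts.

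SMARCD3 was the member with the next largest separation. SMARCD3 (ENSG00000082014, chromosome 7 from 151238780 to 151277149), a subunit known for its role in heart and neural development, was at 82.0, 73.1 and 73.9 CPM in WT and 118, 86.5 and 100.1 CPM in the knockout. The groups did not overlap, and the knockout libraries spread more than the WT libraries (76.4 ± 4.91 and 101 ± 15.7 CPM, SD, n = 3; log2 fold change 0.41 ± 0.11). Its transcripts were not shifted evenly. SMARCD3-201, which begins at position 151248973 inside the gene, had 133, 0 and 157 estimated reads in WT and 395, 416 and 365 in the knockout, or 0% to 10.8% and 17.0% to 23.1% of the gene. SMARCD3-202, which begins upstream at 151276734, held 59.3% to 63.8% in WT and 46.0% to 52.4% in the knockout. The 0 in WT replicate 2 shows how far such estimates can vary between replicates.

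SMARCD1 (ENSG00000066117), its paralog, lay at 191, 199.6 and 196 CPM in WT and 201, 198 and 203 CPM in the knockout. These ranges overlapped (log2 fold change 0.04 ± 0.06). The share of SMARCD3 in this pair was 44.4%, 39.4% and 40.0% of TPM in WT and 51.7%, 43.8% and 46.4% in the knockout. The highest WT share was above the lowest knockout share, so the groups overlapped in TPM. In CPM, which do not correct for length, the share was 26.8% to 30.03% in WT and 30.44% to 37.0% in the knockout, without overlap. SMARCD2, another paralog of the same position, is left out of this share. It stood at 133.8 ± 7.86 TPM in WT and 95.3 ± 6.38 TPM in the knockout (SD, n = 3). Its assigned transcripts held 83.6% to 95.2% of its counts. These shares therefore describe the pair and not the whole position.

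SS18 and its neuronal paralog differed little between genotypes. SS18 (ENSG00000141380), a subunit that is fused to SSX proteins in synovial sarcoma, was at 74.1, 79.5 and 78.3 CPM in WT and 74.6, 91.9 and 85.7 CPM in the knockout (log2 fold change 0.12 ± 0.09). SS18L1 (ENSG00000184402), known for calcium-dependent dendrite growth in neurons, was at 29.05, 32.6 and 28.4 CPM in WT and 30.4, 35.9 and 34.5 CPM in the knockout (log2 fold change 0.16 ± 0.10). Both pairs of ranges overlapped. The SS18L1 share of the pair was 21.8% ± 2.18 of TPM in WT and 21.8% ± 1.67 in the knockout (SD, n = 3), a difference of -0.0454 percentage points.

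**Figure D2:**
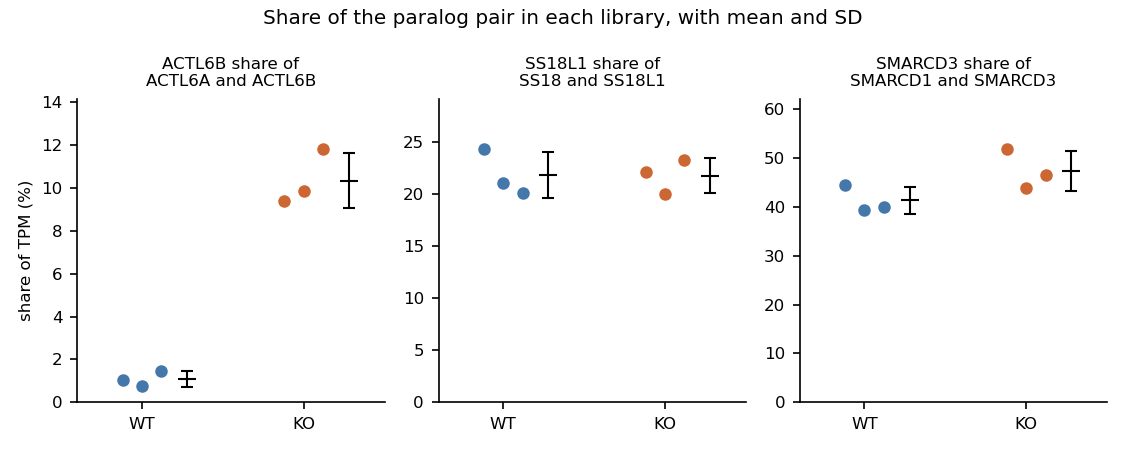
Share of TPM held by ACTL6B, SS18L1 and SMARCD3 in their paralog pair in each WT or knockout (KO) library (points), with mean and SD of 3 libraries in black. The SMARCD3 share is of SMARCD1 and SMARCD3 alone, without SMARCD2. The ACTL6B share is 0.750% to 1.48% in WT and 9.38% to 11.8% in the knockout, while the ranges of the other shares overlap in this unit.

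In WT cells the order of levels per length began with SMARCD1 (95.7 ± 5.84 TPM, SD, n = 3) and ACTL6A (84.0 ± 8.43 TPM), whose ranges overlapped. SMARCD3 (67.2 ± 4.74 TPM) followed below both. PHF10 (44.4 ± 0.456 TPM) and SS18 (41.9 ± 3.403 TPM) overlapped with each other, and SS18L1 was lower (11.7 ± 1.21 TPM). ACTL6B (0.914 ± 0.276 TPM) and DPF3 (listed at 0) came last, and DPF1 and DPF2 were not placed because of their unassigned transcripts. In the knockout ACTL6B reached 11.2 ± 1.59 TPM, a range that overlapped that of SS18L1 (12.1 ± 1.55 TPM).

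Over the 10 genes, 4 had groups that did not overlap, all higher in the knockout (ACTL6A, ACTL6B, DPF3 and SMARCD3), where 21.7% of all 16403 genes tested were higher in this way and 41.7% separated in either direction. The comparison over all genes used edgeR's quasi-likelihood test with an adjusted p threshold of 0.05. It called 26.0% of genes, 14.5% higher and 11.5% lower in the knockout, or 2383 and 1887 genes; with library sizes in place of TMM this split was 2055 and 2438. The 10 genes were part of that fit, and 3 of them were on the called side (ACTL6B, DPF3 and SMARCD3). DPF3 passed the expression filter through its knockout counts alone. Since this contrast was in view when the 10 genes were chosen, nothing is read from how many of them were called or did not overlap. Their median log2 fold change was 0.19, with DPF3 at its fitted value or at its bound, against 0 over all genes. No fitted log2 fold change was below 0 in that fit, whereas SMARCD1 was at -0.02 with library sizes alone and DPF2 at -0.12 on length-corrected transcript counts. The latter value of DPF2 had an SE of 0.19 and used transcripts that held 44.9% to 61.6% of its counts.

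The rest of the complex was not used to choose the 10 genes and was tested, though this list too was set with earlier results of these data known. Of 20 other BAF subunit genes, 7 rose and 1 fell, while 12 missed the threshold. The median log2 fold change of these 20 was 0.15. Over all genes 26.0% were called, 14.5% higher and 11.5% lower. SMARCA2, the ATPase that alternates with SMARCA4, rose. It went from 16.9, 17.5 and 18.6 CPM in WT to 45.2, 45.1 and 47.7 CPM in the knockout (log2 fold change 1.38 ± 0.09, edgeR adjusted p = 1.20e-06). On length-corrected transcript counts its log2 fold change was 0.55 (edgeR adjusted p = 0.0119), below the 0.64 of BCL7A there. Those counts use only transcripts that could be assigned to genes, which held 69.0% to 100% of the SMARCA2 counts. The alternative ATPase SMARCA4 also rose, from 285.5 ± 6.25 to 345.5 ± 7.02 CPM (SD, n = 3; 0.28 ± 0.06, edgeR adjusted p = 0.00415).

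BCL7A, an accessory subunit of the ATPase module, rose from 51.4 ± 0.0935 to 81.9 ± 1.82 CPM (SD, n = 3; log2 fold change 0.67 ± 0.07, edgeR adjusted p = 3.52e-05), with no overlap of the groups. SMARCD2, the remaining paralog beside SMARCD1 and SMARCD3, was the single subunit gene that fell. It went from 205, 211 and 208 CPM in WT to 168, 149 and 157 CPM in the knockout (-0.40 ± 0.07, edgeR adjusted p = 0.00102). ARID1B, one of the alternative DNA-binding subunits, rose (0.37 ± 0.07, edgeR adjusted p = 0.00357), while its paralog ARID1A was at 0.15 ± 0.06 (edgeR adjusted p = 0.0760; named after its value was seen).

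The zinc-finger subunit gene BCL11A rose from 12.8 ± 0.625 to 17.7 ± 1.77 CPM (SD, n = 3; 0.47 ± 0.11, edgeR adjusted p = 0.0113), though on length-corrected transcript counts the adjusted p was 0.442. ACTB, beta-actin, rose by 0.46 ± 0.09 (edgeR adjusted p = 0.00330), and its reads can be shared with processed pseudogenes. PBRM1, which marks the polybromo form of the complex, rose by 0.44 ± 0.12 (edgeR adjusted p = 0.0259), with 1 knockout library inside the WT range. That call was lost without WT replicate 1 or 3 or knockout replicate 2 or 3 (adjusted p from 0.0597 to 0.114) and on length-corrected transcript counts (0.314). The transcripts used for the latter held only 50.2% to 63.4% of the PBRM1 counts. The core genes SMARCB1 (-0.04 ± 0.06), SMARCC1 (0.11 ± 0.07) and SMARCE1 (0.11 ± 0.08) did not pass (edgeR adjusted p of 0.724, 0.326 and 0.313; named after their values were seen).

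**Figure D3:**
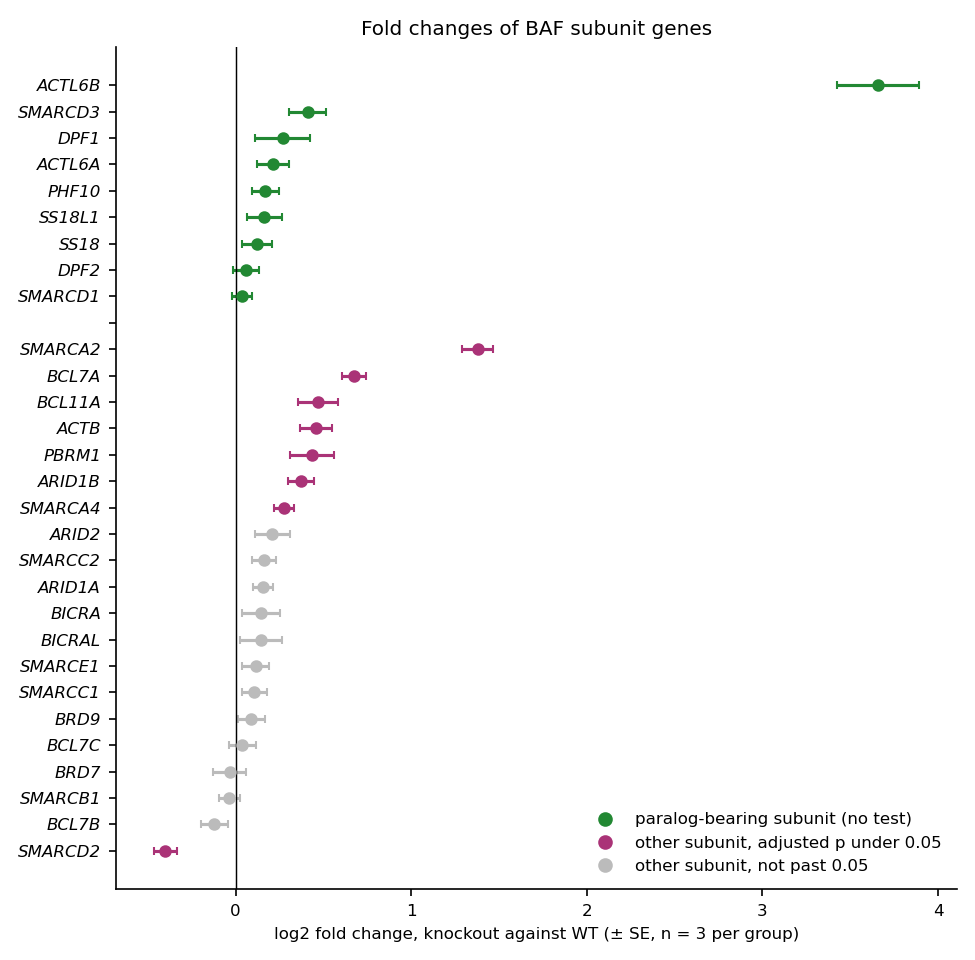
Log2 fold change, knockout against WT, with its SE from the edgeR fit of 3 libraries per group, for BAF subunit genes. Green marks 9 of the 10 paralog-bearing subunits, shown without a test result (DPF3 is left out because it has no WT count). The 20 other BAF subunits are purple where the adjusted p is under 0.05, otherwise grey. ACTL6B stands at 3.66 and SMARCA2 at 1.38, and SMARCD2 is the single called gene below 0.

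A list of REST, related corepressors and phosphatases, PTBP1, PTBP2 and host genes of neuronal microRNAs held genes that moved in both directions. Their part in the exchange of subunits in these cells was not tested. Of the 12 genes of this list, 4 rose and 2 fell by the edgeR test, while 6 missed the threshold, beside 14.5% higher and 11.5% lower over all genes. REST, the repressor of neuronal genes, rose from 18.2, 21.5 and 24.9 CPM in WT to 35.1, 47.05 and 39.7 CPM in the knockout (log2 fold change 0.92 ± 0.14, edgeR adjusted p = 0.000620). RCOR2, a corepressor of the same family as the REST partner RCOR1, fell from 69.6 ± 1.94 to 49.0 ± 2.80 CPM (SD, n = 3; -0.51 ± 0.08, edgeR adjusted p = 0.000573). CTDSPL, a phosphatase that acts with REST, fell as well (-0.38 ± 0.07, edgeR adjusted p = 0.00190).

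Of 4 host genes of neuronal microRNAs, a part of the list above, 3 rose, beside 14.5% called higher over all genes. LINC00461 did not pass (log2 fold change 0.31 ± 0.25, edgeR adjusted p = 0.414, named after its value was seen). MIR124-1HG had 5 counts over the 3 WT libraries and 75 over the knockout libraries, a ratio of 14.5 (exact 95% interval 5.96 to 46.1, counting error only; log2 fold change 3.76 ± 0.60, edgeR adjusted p = 0.000947). Without WT replicate 3 its log2 fold change was 4.44. MIR124-1HG passed the expression filter through its knockout counts alone. MIR9-3HG (0.93 ± 0.19, edgeR adjusted p = 0.00421) and MIR9-1HG (0.61 ± 0.20, edgeR adjusted p = 0.0432), both named after their values were seen, rose too. The call of MIR9-1HG was lost in DESeq2 (adjusted p = 0.0604), with library sizes alone (0.0640) and without WT replicate 2 or 3 or knockout replicate 1 or 3 (0.102 to 0.151). Transcripts that could be assigned to genes held 0% to 26.0% of the MIR124-1HG counts, 0% to 18.2% for MIR9-3HG and 0% to 25.5% for LINC00461. For MIR9-1HG they held 68.9% to 90.4%. Length-corrected transcript counts, which tested 9 of the 12 genes of the list, therefore say little about the first 3. The mature microRNAs themselves were not measured. PTBP1 and PTBP2, splicing repressors that alternate between progenitors and neurons, were at 0.01 ± 0.08 and 0.02 ± 0.11 (edgeR adjusted p of 0.944 and 0.928; named after their values were seen).

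Among 22 remodelling genes outside the BAF family, 3 rose and 0 fell, while 19 missed the threshold; without knockout replicate 2, 4 rose and 1 fell. Over all genes 14.5% were called higher and 11.5% lower, so the count shows nothing particular to this list. Their median log2 fold change was 0.09. CHD5, a helicase gene expressed in neurons, rose from 0.533, 0.355 and 1.02 CPM in WT to 9.17, 10.8 and 10.2 CPM in the knockout (3.97 ± 0.29, edgeR adjusted p = 3.20e-06). With 11, 7 and 20 WT counts, CHD5 passed the expression filter only with its knockout counts. CHD3 rose by 0.39 ± 0.06 (edgeR adjusted p = 0.000734). EP400 rose by 0.20 ± 0.06 (edgeR adjusted p = 0.0424), a call lost without any 1 library other than knockout replicate 2 (adjusted p from 0.0659 to 0.164). Its adjusted p was also 0.182 on length-corrected transcript counts, 0.142 with library sizes alone and 0.0626 without the filter. CHD4 was at 0.14 ± 0.05 (edgeR adjusted p = 0.0924).

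The genes around each member were compared because chromosome segments can shift as a whole. For 9 of the 10 members the median log2 fold change of tested genes within 5 Mb lay between -0.08 (DPF2, 222 genes) and 0.08 (PHF10, 22 genes). It was -0.02 around ACTL6B (114 genes) and -0.02 around DPF3 (90 genes). In the window of ACTL6B, 2 of 114 genes had a larger fitted value than ACTL6B. Around SMARCD3 the median was 0.06 (53 genes).

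ACTL6A was the exception. Within 5 Mb of it the median of 45 tested genes was -0.41, with 23 called lower and 1 called higher, while ACTL6A itself was at 0.21. Over all genes 11.5% were called lower and 14.5% higher. Of the 23 lower genes, 22 lay toward the chromosome end. A split by side, chosen after seeing the data, gave a median of -0.52 over 36 genes on that side, with 0 called higher, and 0.06 over 9 genes on the centromere side. The 9 genes within 1 Mb of ACTL6A had a median of 0.06, with 1 called higher and 0 lower. Genes of a segment are not replicates, and the copy number of these cells was not measured.

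**Figure D4:**
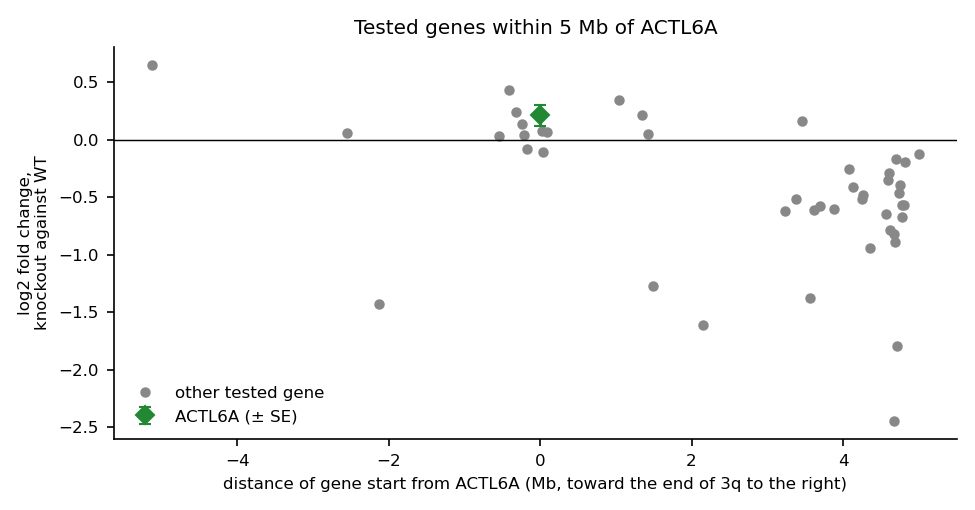
Log2 fold change, knockout against WT, of the 45 other tested genes within 5 Mb of ACTL6A (grey points) by the distance of their start from that of ACTL6A in Mb, with ACTL6A in green at 0.21 ± 0.09 (SE). Genes on the right, toward the chromosome end, have a median of -0.52 and those on the left one of 0.06.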

How the data were processed

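RNA of 3 WT and 3 DNAJC12 knockout libraries was extracted with TRIzol, depleted of ribosomal RNA and made into stranded libraries, per the labels' protocols. The submitters' processing notes name cutadapt 3.5, Salmon 1.10.0, DESeq2 1.42.1 and the build GRCh38.p14, with no roles stated. For the annotation release, the sources used here give none. Estimated counts by gene, as whole numbers, make up the authors' deposited table, from which 403 repeated rows were removed. The deposited transcript files hold estimated counts and TPM, per the file headers, and effective transcript lengths (another quantity, in bases).

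Counts were tested with edgeR 4.0.16 in R 4.3.3: filterByExpr, TMM, a two-sided quasi-likelihood test of genotype, and Benjamini-Hochberg adjustment over 16403 genes, threshold 0.05. SE was derived as |log2 fold change| divided by the root of the F statistic. GENCODE release 29 linked transcripts to genes and held 94.2% to 94.6% of reads. Positions came from RefSeq GRCh38.p14 and were found for 16137 genes, and promoters for 9 of the 10 members. One count was 0.0457 to 0.0518 CPM in a library. Replicate pairs differed by more than sampling noise (chi-square per gene 4.22 to 21.0), so each library counted once.

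The members, the lists and the tests were chosen with earlier results of these data known. Named are the members, DNAJC12, every called gene among the other BAF subunits and the 4 smallest adjusted p of each tested list; other names are marked. Alternatives were a replicate block, each library left out, other scalings, no filter, DESeq2 1.42.0, length-corrected transcript counts, CPM shares, other windows and neighbours with a mean of at least 4 CPM.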

Additional observations from a re-analysis of the deposited data

How the results depend on the processing

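The number of genes called ran from 2966 to 4772 with 1 library left out and was 2829 on length-corrected transcript counts, against 4270. Of the 20 other BAF subunits 6 to 8 were called in every setting run. Among the other remodelling genes 2 to 5 were called with 1 library left out (5 without knockout replicate 2), against 3. The log2 fold change of DPF2 was -0.12 (SE 0.19) on length-corrected transcript counts, from transcripts with 44.9% to 61.6% of its counts. That of SMARCD1 was -0.0191 with library sizes alone. The bound for DPF3 ran from 33.0 to 60.3 with 1 library left out. With a window of 1 Mb the median of neighbouring genes was -0.0705 for DPF1, 0.0394 for DPF3, 0.0640 for ACTL6A, 0.00028 for SMARCD3 and 0.62 for SS18 (4 genes), and with 10 Mb it was -0.27 for ACTL6A. Taken by side it was 0.0614 and -0.52 for ACTL6A. With 1 library left out it ran from -0.45 to -0.40 for ACTL6A, from -0.0336 to 0.00941 for DPF3 and from 0.0457 to 0.12 for PHF10. Where no cause follows from the setting's construction, the cause was not tested.

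Deviations of same-numbered libraries from their group means were weakly correlated (0.06, -0.03 and -0.07). With 3 libraries per group this cannot exclude that the numbers pair the samples, and the labels do not say. With a replicate block 4565 genes were called. Among them were 8 of the other BAF subunits, 6 of the list with REST and the microRNA host genes, and 2 of the other remodelling genes. EP400 had an edgeR adjusted p of 0.0529 in that fit. The log2 fold changes of the 9 members other than DPF3 moved with the block by less than the spread between replicates. DPF3 and MIR124-1HG rest on few counts, so depth limits the precision of both.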
